A study of Mus musculus with 2 samples.

Results

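Tnc, Tnn, Tnxb, Postn, Fn1, Thbs1 and Thbs2, which encode 3 tenascins, periostin, fibronectin and 2 thrombospondins, were followed by cell class in single-cell RNA sequencing of amputated mouse digits. The members were taken by symbol from the gene lists of both libraries, which gave 7 of 33696 genes, each on 1 row, and all 7 had transcripts in both libraries. Hindlimb digits 2 and 4 of neonate ICR mice were amputated through the middle phalanx (P2) at postnatal day 3, and an agarose bead carrying FGF8 (500 ng/µl) or bovine serum albumin (BSA, 0.1%) was placed into the closed wound at postnatal day 7. Tissue beyond the bone stump was collected 24 h later, at postnatal day 8, after its epithelium had been taken away. Each treatment gave 1 library, a pool of 20 digits from 5 mice of both sexes, and by the methods of the study the FGF8 pool probably held digits that would not have regenerated.

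These proteins are secreted by connective tissue cells and bind cells as well as the fibrillar matrix. Fibronectin is the early matrix of a healing wound, tenascin-C and periostin are laid down in wounds and in tissues under mechanical load, tenascin-X organises collagen fibrils, and thrombospondins 1 and 2 bind CD47 and CD36 and restrain vessel growth. Tenascin-C, periostin and fibronectin are read by cells mainly through integrins, and in amphibian limb regeneration a matrix rich in tenascin-C and fibronectin is known around the stump.

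On GRCm39 with the GENCODE vM39 annotation, Tnc (ENSMUSG00000028364) lies on chr4:63878014-63965443, Tnn (ENSMUSG00000026725) on chr1:159912599-159981150 and Tnxb (ENSMUSG00000033327) on chr17:34879431-34938789. Postn (ENSMUSG00000027750) lies on chr3:54268501-54298471 and Fn1 (ENSMUSG00000026193) on chr1:71624673-71692419. Thbs1 (ENSMUSG00000040152) lies on chr2:117941974-117957616 and Thbs2 (ENSMUSG00000023885) on chr17:14885761-14914528. Counts are per gene over its whole span, and non-coding genes on the opposite strand that are also in the count tables overlap Tnc, Fn1 and Thbs1.

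RefSeq promoter sequences (GRCm38.p6, a different build from the gene positions above; 250 bases before the gene start to 50 after it) were held for 5 of the 7 genes, in 7 entries. They are shown for Postn, Thbs2 and Tnxb, the 3 members with the lowest FGF8 over BSA ratios in fibroblast-like cells, and for Tnc, the member with the highest. Each runs 5′ to 3′ on the strand of its gene, and capitals mark a match to TATAAA or to TGANTCA (the AP-1 site) on either strand. The Postn sequence is chr3:54360857-54361156 (+ strand), that of Thbs2 is chr17:14694213-14694512 (- strand), that of Tnxb is chr17:34670285-34670584 (+ strand) and that of Tnc is chr4:64046887-64047186 (- strand).
Postn: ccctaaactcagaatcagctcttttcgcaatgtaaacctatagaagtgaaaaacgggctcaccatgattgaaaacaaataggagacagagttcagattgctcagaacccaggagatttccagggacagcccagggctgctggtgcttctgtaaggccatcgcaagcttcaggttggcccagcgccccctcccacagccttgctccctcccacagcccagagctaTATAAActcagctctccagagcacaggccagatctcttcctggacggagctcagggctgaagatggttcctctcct
Thbs2: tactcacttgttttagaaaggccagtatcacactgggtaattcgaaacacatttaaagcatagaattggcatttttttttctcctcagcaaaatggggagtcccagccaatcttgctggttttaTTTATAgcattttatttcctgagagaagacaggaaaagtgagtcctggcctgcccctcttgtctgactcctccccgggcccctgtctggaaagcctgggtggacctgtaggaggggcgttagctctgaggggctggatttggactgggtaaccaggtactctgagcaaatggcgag
Tnxb: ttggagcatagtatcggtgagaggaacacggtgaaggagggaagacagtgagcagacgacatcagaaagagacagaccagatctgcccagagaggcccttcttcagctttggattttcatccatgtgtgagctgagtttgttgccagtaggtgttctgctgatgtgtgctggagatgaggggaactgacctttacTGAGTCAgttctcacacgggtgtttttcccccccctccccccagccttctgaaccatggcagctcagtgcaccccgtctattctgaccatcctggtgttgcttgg
Tnc: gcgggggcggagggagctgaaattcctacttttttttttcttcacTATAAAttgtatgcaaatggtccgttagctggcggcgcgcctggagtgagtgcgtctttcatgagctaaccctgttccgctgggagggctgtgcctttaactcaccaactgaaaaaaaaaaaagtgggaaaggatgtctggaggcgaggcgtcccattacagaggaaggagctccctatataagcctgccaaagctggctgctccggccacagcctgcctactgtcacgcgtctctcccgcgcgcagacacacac
TATAAA began 26 bases before the gene start in this Postn entry, its reverse complement began 126 bases before the start of Thbs2, and the Tnc match began 205 bases before the start. Only these exact letters were searched, and the Tnc entry also holds tatataa closer to the gene start. The Tnxb promoter held TGANTCA, 55 bases before the start, and no TATAAA. Of 32851 promoters of this length, 13.6% held TATAAA and 7.81% held TGANTCA on either strand, against 4 of 7 entries with the first and 1 of 7 with the second, as a description of these letters alone. Both Tnc entries overlap and hold the same TATAAA, so that the first motif was found at 3 sites in 3 genes. The other Postn entry and the Tnn entry held neither.

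The libraries held 3703 (BSA) and 7249 (FGF8) barcodes with 67739460 and 124889213 unique molecular identifiers (UMIs, each 1 captured transcript), and 3252 and 6715 cells passed the filters, with medians of 15377 and 12251 UMIs; 6 barcodes occurred in both libraries. Sex was not balanced between the pools. Of the cells that could be called from Xist and Y-linked transcripts, 79.3% were female in the BSA library and 24.6% in the FGF8 library, so treatment and sex cannot be told apart in a joint value, and the ratios of the members were repeated within female-called and male-called cells where each library held at least 10 of them, as were those of 2 gene lists in fibroblast-like cells. With 1 library per treatment there is no replicate check and no test; all 95% intervals cover counting error only and are narrower than the spread between animals would be. Levels are UMIs of a gene per 1000000 UMIs of a class (CPM), ratios are log2 of FGF8 CPM over BSA CPM, and a gene was called past a log2 ratio of 1 or -1.

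Cells fell into 20 classes, of which 5 subclusters named by a leading gene (Sema3a, Prg4, Fmod, Lpl and a low-UMI subcluster led by Lars2) formed the fibroblast-like cells, 1820 in the BSA and 3527 in the FGF8 library. All 7 fibroblast markers were detected in these cells, and Mfap5 and Dpt were among their 10 leading genes, as was Tnn itself, although no member had been used in the clustering. The Fmod subcluster had 2 tenocyte markers and no fibroblast marker among its leading genes and the Prg4 subcluster 1 synovial lining marker, so that values for the joined fibroblast-like cells are followed by those of each subcluster. Names are rebuilt from marker lists and may differ from those of the study.

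Of the 7 members, 6 had their highest level in a connective tissue class (the fibroblast-like subclusters or the chondrocyte-like cells) and Thbs1 had it in neutrophil-like cells. The share of all genes that are highest in one of these classes was not computed, so this count is a description only. Fibroblast-like cells, with 66.6% of all UMIs, held 96.0% of the Tnn UMIs, 94.5% of those of Tnxb, 93.3% of those of Thbs2, 91.9% of those of Postn and 88.5% of those of Tnc. The share was 68.2% for Thbs1, near the share of all UMIs. For Fn1 it was 80.8% in the BSA library, where these cells held 65.0% of all UMIs, and 50.9% in the FGF8 library, where they held 67.4%. Erythroid-like cells, a class that should lack these transcripts, held 0 to 46.1 CPM of any member in either library. This is a reference level and not a ceiling of free RNA for other classes. Over both libraries Postn stood at 38.1 CPM in erythroid-like cells. Its level was 179 CPM in neutrophil-like, 140 CPM in mast-like, 58.1 CPM in T or NK-like, 45.6 CPM in macrophage-like and 35.7 CPM in monocyte or dendritic-like cells. The part of free RNA in each class was not tested.

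**Figure D1:**
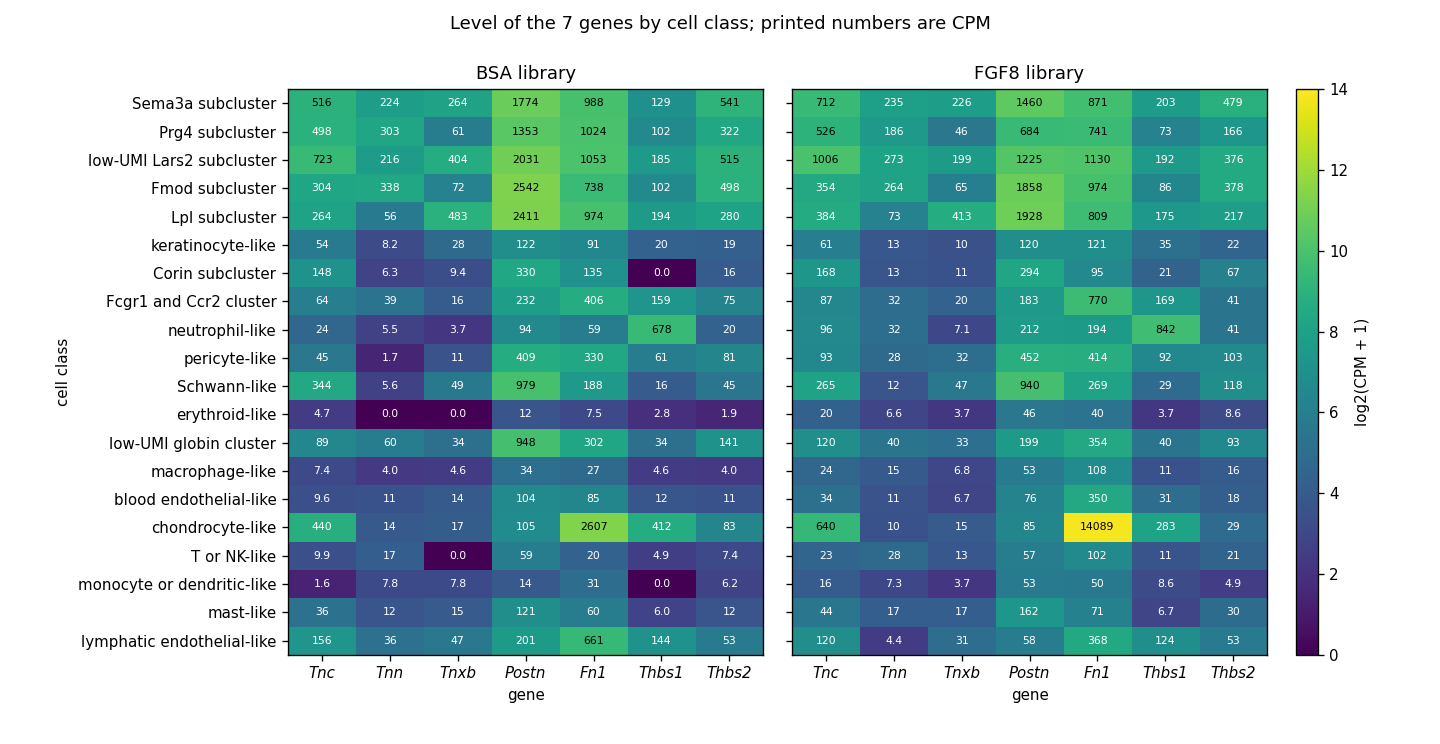
Level of the 7 genes (columns) in 20 cell classes (rows), with the BSA library on the left and the FGF8 library on the right; colour is log2(CPM + 1) and the printed numbers are CPM. Postn stood between 684 and 2542 CPM in the upper 5 rows, the fibroblast-like subclusters, while Fn1 stood at 14089 CPM in chondrocyte-like cells of the FGF8 library and Thbs1 at 678 and 842 CPM in neutrophil-like cells.

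Among the tenascins, Tnc, the tenascin induced in wounds, stood at 909 CPM in the low-UMI Lars2 subcluster over both libraries. Cells of that subcluster had medians of only 1690 UMIs in the BSA and 1646 UMIs in the FGF8 library. Tnc then stood at 620 CPM in the Sema3a subcluster, 573 CPM in chondrocyte-like cells and 521 CPM in the Prg4 subcluster. The intervals of these 4 classes did not overlap over both libraries, but chondrocyte-like cells stood below the Prg4 subcluster in the BSA library (440 and 498 CPM) and above it in the FGF8 library (640 and 526 CPM). The Lpl and Fmod subclusters (333 and 331 CPM) could not be separated. Schwann-like cells also held Tnc, at 344 CPM in the BSA and 265 CPM in the FGF8 library. Tnn, which encodes tenascin-N (tenascin-W), a tenascin of skeletal and connective tissue, was highest in the Fmod subcluster over both libraries (297 CPM) and low in the Lpl subcluster (65.8 CPM). In the FGF8 library alone it was highest in the low-UMI Lars2 subcluster, at 273 CPM against 264 CPM in the Fmod subcluster. Tnxb, which encodes tenascin-X, was highest where Tnn was lowest of the 5 subclusters, with 443 CPM in the Lpl subcluster, 270 CPM in the low-UMI Lars2 subcluster, 244 CPM in the Sema3a subcluster, 68.1 CPM in the Fmod subcluster and 48.5 CPM in the Prg4 subcluster.

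Postn, the gene of periostin, which binds collagen and tenascin-C, was highest in the Fmod and Lpl subclusters, at 2170 and 2133 CPM over both libraries with overlapping intervals (the Lpl subcluster was the higher in the FGF8 library), and lowest of the 5 subclusters in the Prg4 cells (814 CPM). Outside these cells it was highest in Schwann-like cells, at 979 CPM in the BSA and 940 CPM in the FGF8 library, and 78.0% and 71.2% of those cells held a Postn UMI after thinning to 2000 UMIs. Thinning, here and below, left out cells with fewer UMIs than the thinned depth, whereas shares before thinning cover all cells of a class. In erythroid-like cells the thinned shares were 1.89% and 10.5%, at medians of 20013 and 10758 UMIs before thinning, against 15252 and 11679 UMIs in Schwann-like cells, where 94.4% and 94.2% held a UMI before thinning. Schwann-like cells also showed fibroblast marker transcripts, 3344 and 3207 CPM summed over 7 markers against 31600 and 16986 CPM in fibroblast-like cells, and their part in the Postn level was not tested.

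Fn1, the gene of fibronectin, was highest in chondrocyte-like cells, at 10222 CPM over both libraries, and between 796 and 1104 CPM in the 5 fibroblast-like subclusters. Thbs1, the gene of thrombospondin 1, an activator of latent TGF-β, stood at 796 CPM in neutrophil-like cells, 326 CPM in chondrocyte-like cells and from 166 to 189 CPM in the next 4 classes, some with overlapping intervals. Among neutrophil-like cells with at least 2000 UMIs (145 BSA and 386 FGF8 cells), 38.6% and 53.1% held a Thbs1 UMI after thinning. The thinned shares in erythroid-like cells were 0% (0 of 53 cells, which allows a share of up to 5.66%) and 0.329%. Before thinning, the shares over all 155 and 519 neutrophil-like cells were 49.7% and 53.0%, at medians of 3206 and 2384 UMIs. Thbs2, the gene of thrombospondin 2, was highest in the Sema3a subcluster (508 CPM), followed by the Fmod and low-UMI Lars2 subclusters (433 and 424 CPM, with overlapping intervals). In contrast to Thbs1 it was at 20.2 and 40.7 CPM in neutrophil-like cells.

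In fibroblast-like cells, Postn, Tnxb and Thbs2 were lower in the FGF8 library, at 0.588, 0.611 and 0.615 times their BSA levels, and Tnc was the one member that was higher, at 1.25 times. None of the 7 was past a log2 ratio of 1 or -1. Of the 20049 genes with at least 10 UMIs, 6.72% were above 1 and 5.06% were below -1, and for 7 genes a count of none is near these shares. The shares include genes with far fewer UMIs than any member had. The median of the members was a log2 ratio of -0.30, against -0.07 over all genes with at least 10 UMIs, and 6 of the 7 were below 0. The share of all genes below or above 0 was not computed, here or in other classes.

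Postn stood at 1953 CPM in the BSA library and 1148 CPM in the FGF8 library, a log2 ratio of -0.77 (95% interval -0.78 to -0.75). It was lower in both sexes, with log2 ratios of -0.95 among female-called cells and -0.68 among male-called cells. Thbs2 was at 431 and 265 CPM, a log2 ratio of -0.70 (-0.73 to -0.67), with -0.92 among female-called cells and -0.60 among male-called cells. Tnxb was at 213 and 130 CPM, a log2 ratio of -0.71 (-0.76 to -0.67), and, unlike those of Postn and Thbs2, its ratio was lower in male-called (-0.79) than in female-called cells (-0.63). These 3 genes were thus lower in the FGF8 library in either sex, by more than their counting intervals.

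Tnc was at 428 CPM in the BSA library and 536 CPM in the FGF8 library, a log2 ratio of 0.32 (0.30 to 0.35). Within a sex the ratio was smaller, 0.17 (0.13 to 0.22) in female-called cells and 0.03 (-0.02 to 0.08, an interval that held 0) in male-called cells. In the BSA library Tnc stood at 415 CPM in its female-called and 539 CPM in its male-called cells. Tnn was at 240 and 194 CPM, a log2 ratio of -0.30 (-0.34 to -0.26), and differed in size between the sexes, with -0.81 among female-called cells and -0.16 among male-called cells. Fn1 was at 942 and 816 CPM (-0.21, -0.23 to -0.19), with -0.30 and -0.13 in female-called and male-called cells. Thbs1 was at 129 and 115 CPM (-0.17, -0.22 to -0.12), with -0.35 in female-called cells and 0 within its interval (-0.11 to 0.11) in male-called cells.

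**Figure D2:**
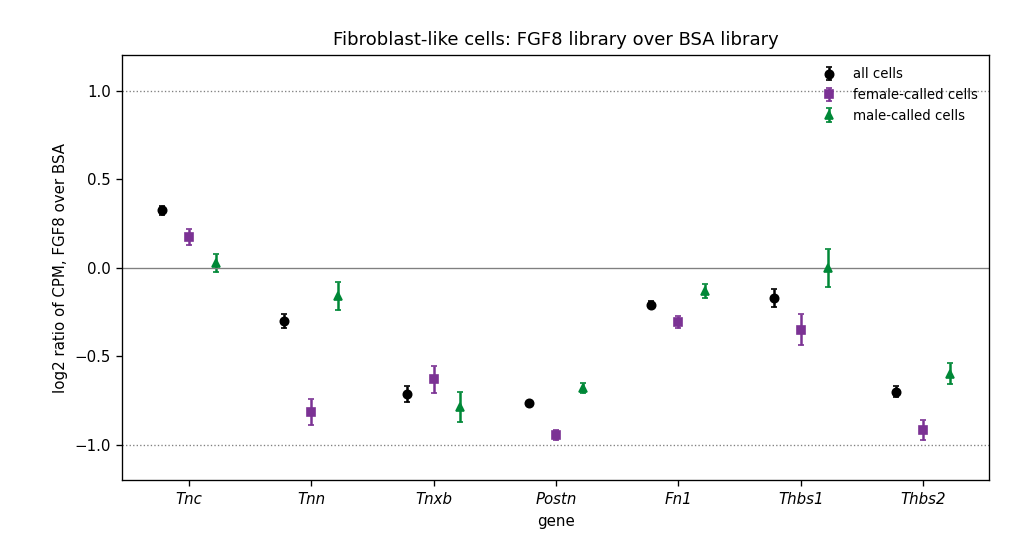
Log2 ratio of CPM, FGF8 over BSA library, of the 7 genes in fibroblast-like cells (1820 and 3527 cells), for all cells (circles), female-called cells (squares) and male-called cells (triangles), with 95% counting intervals; dotted lines mark 1 and -1. Postn, Tnxb and Thbs2 lie between -0.95 and -0.60 in every reading, and Tnc stands at 0.32 in all cells and 0.03 in male-called cells.

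The 7 fibroblast markers were lower as well, all 7 of 7, with a summed level of 31600 CPM in the BSA and 16986 CPM in the FGF8 library (log2 ratio -0.90), and the 5 tenocyte markers, 5 of 5, went from 405 to 237 CPM. None of these markers was at 0 in either library. Of the 6 chondrocyte markers 1 was higher and 5 were lower, with a sum of 242 and 223 CPM. The synovial lining markers, 2 of 4 higher, went from 309 to 2119 CPM. The part of these lists in the members' ratios was not tested.

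The subclusters were not equally represented. The Prg4 subcluster, whose leading genes include the lubricin gene Prg4, Mmp3 and the mitotic genes Plk1, Ccnb1 and Cdc20, made up 8.64% of the BSA library (95% interval 7.70 to 9.66) and 16.0% of the FGF8 library (15.1 to 16.9), while the Sema3a subcluster made up 19.6% and 13.4%. Without the Prg4 subcluster the log2 ratio was -0.36 for Postn, -0.31 for Thbs2, -0.23 for Tnxb, -0.09 for Tnn, -0.02 for Fn1, 0.23 for Thbs1 and 0.43 for Tnc, so that Thbs1 changed sign and the median of the members was -0.09. With each subcluster given the same weight in both libraries, the log2 ratio was -0.54 for Postn, -0.49 for Thbs2, -0.29 for Tnxb, -0.37 for Tnn, -0.22 for Fn1, -0.0009 for Thbs1 and 0.27 for Tnc, with a median of -0.29.

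Postn, Thbs2 and Tnxb were lower in the FGF8 library in 5 of 5 subclusters and Tnc was higher in 5 of 5. Fn1 and Thbs1 were lower in 3 and higher in 2, and Tnn was lower in 2 and higher in 3. Splitting each subcluster by sex, Postn was lower in 10 of 10 subcluster and sex combinations, Thbs2 and Tnxb in 9 of 10, and Tnc was higher in 6 of 10, while Tnn was lower in 8, Fn1 in 7 and Thbs1 in 5. The median over the members was lowest in the Prg4 subcluster, at -0.47 with 6 of the 7 below 0, with none past 1 or -1 against a background of 5.21% above 1 and 9.42% below -1. Postn went there from 1353 to 684 CPM, a log2 ratio of -0.98 (-1.02 to -0.95), with -1.18 among female-called cells and -1.06 among male-called cells. Thbs2 went from 322 to 166 CPM (-0.96, -1.02 to -0.89) and Tnn from 303 to 186 CPM (-0.71, -0.77 to -0.64), while Tnc differed little, at 498 and 526 CPM (0.08, 0.03 to 0.13). In this subcluster, too, the fibroblast markers were lower, 7 of 7, from 21369 to 9689 CPM, as were 5 of 5 tenocyte markers, from 344 to 127 CPM, and 6 of 6 chondrocyte markers, from 387 to 237 CPM. The synovial lining markers, 2 of 4 higher, went from 1044 to 3767 CPM, and the part of these lists was not tested.

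Thbs1 and Tnc were higher in the FGF8 library in the Sema3a subcluster. Thbs1 went from 129 to 203 CPM, a log2 ratio of 0.65 (0.56 to 0.75), with 0.43 among female-called cells and 0.47 among male-called cells. Tnc went from 516 to 712 CPM (0.46, 0.42 to 0.51), but with 0.09 (an interval that held 0) among female-called cells and 0.33 among male-called cells. Tnn was at 224 and 235 CPM, with an interval that held 0, and differed in sign between female-called (-0.60) and male-called cells (0.21). Tnxb was lowest in the low-UMI Lars2 subcluster by ratio, where it went from 404 to 199 CPM (-1.02, -1.22 to -0.82), from 440 and 414 UMIs. The cells of this subcluster had medians of only 1690 and 1646 UMIs. The share of all genes past -1 there was not computed. Fn1 was higher in the FGF8 library in the Fmod subcluster, at 738 and 974 CPM (0.40, 0.35 to 0.45; 0.53 among female-called cells and 0.55 among male-called cells), and lower in the Lpl subcluster, at 974 and 809 CPM (-0.27, -0.32 to -0.22). Whether the ratios differ between subclusters beyond the spread between animals was not tested.

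**Figure D3:**
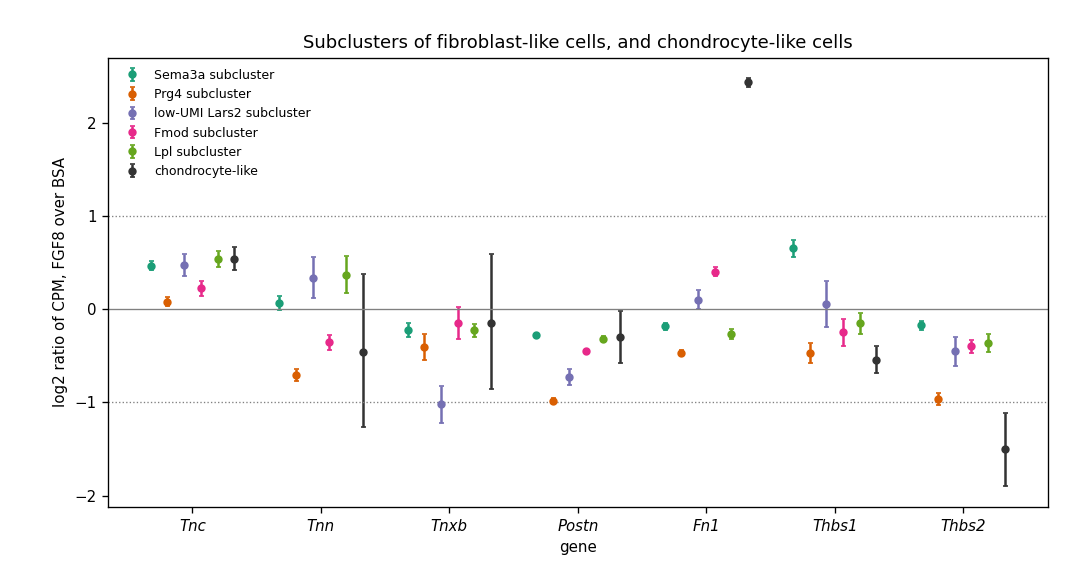
Log2 ratio of CPM, FGF8 over BSA library, of each gene (horizontal axis) in the 5 fibroblast-like subclusters and in chondrocyte-like cells (colours), with 95% counting intervals; dotted lines mark 1 and -1. Postn and Thbs2 lie below 0 in all 5 subclusters and lowest in the Prg4 subcluster (-0.98 and -0.96), whereas Fn1 stands at 2.43 in chondrocyte-like cells.

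Seen cell by cell, Postn was lower in the FGF8 library at each percentile read. Among fibroblast-like cells with at least 2000 UMIs (1628 BSA and 3134 FGF8 cells), the 10th percentile of Postn was 285 and 127 CPM, the median 1357 and 858 CPM and the 90th percentile 4170 and 2938 CPM. Tnc was higher there, with a median of 175 CPM in the BSA and 305 CPM in the FGF8 library and a 90th percentile of 1013 and 1320 CPM. The ranges of the cells of both libraries overlapped widely for every member. After thinning to 2000 UMIs, 82.8% of BSA and 72.0% of FGF8 fibroblast-like cells held a Postn UMI, 46.8% and 36.1% a Thbs2 UMI, 30.2% and 23.3% a Tnxb UMI and 38.6% and 47.4% a Tnc UMI. The thinned shares in erythroid-like cells were 0% and 1.97% for Thbs2, 0% and 1.64% for Tnxb and 1.89% and 4.28% for Tnc. Before thinning, the shares of all 1820 and 3527 fibroblast-like cells were 92.2% and 91.7% for Postn, 75.4% and 74.2% for Thbs2, 56.5% and 49.6% for Tnxb and 69.0% and 79.6% for Tnc, at medians of 19084.5 and 17487 UMIs per cell. A mean of 3.13 of the 7 members was detected per thinned cell in the BSA library and 2.92 in the FGF8 library.

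Chondrocyte-like cells, 55 in the BSA and 135 in the FGF8 library, held the highest Fn1 level of any class, and that level was higher in the FGF8 library. Fn1 stood at 2607 CPM in the BSA library and 14089 CPM in the FGF8 library, 5.40 times higher, a log2 ratio of 2.43 (2.39 to 2.48), with 2.81 among female-called cells and 1.82 among male-called cells. The male-called ratio rests on few of the 55 BSA cells, as 78.4% of those that could be called were female. Of all genes with at least 10 UMIs in this class, 11.0% were above 1 and 6.01% below -1. Within these pools the difference was spread over many cells, which gives no measure of the spread between animals. The median over cells was 1513 CPM in the BSA and 9763 CPM in the FGF8 library, the 25th percentile was 255 and 4138 CPM and the 75th percentile 2982 and 20361 CPM, so that the 25th percentile of the FGF8 cells lay above the 75th of the BSA cells. As a share of all Fn1 UMIs, chondrocyte-like cells held 10.2% in the BSA library and 40.3% in the FGF8 library, from 2.98% and 3.09% of the UMIs of all genes.

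The chondrocyte markers of this class (6 genes, none at 0) summed to 43816 CPM in the BSA and 33485 CPM in the FGF8 library, with 5 of 6 lower, the fibroblast markers went from 7310 to 3242 CPM with 7 of 7 lower, and the osteoblast markers were at 746 and 772 CPM. The 5 macrophage markers were higher, 5 of 5, at a sum of 3.71 and 119 CPM, with 2 at 0 in the BSA library, as were the 5 neutrophil markers, 5 of 5, at 3.71 and 167 CPM. Tenocyte markers were lower, 5 of 5, at 552 and 211 CPM, and erythroid markers, 4 of 5, at 11172 and 2061 CPM, and the part of any of these lists in the Fn1 ratio was not tested. Of the other members, Thbs2 was past -1, at 82.8 and 29.2 CPM (-1.50, -1.90 to -1.11), with -1.12 among female-called cells and 0.03 among male-called cells, the latter from 7 BSA UMIs. Thbs1 went from 412 to 283 CPM (-0.54, -0.69 to -0.40), but its ratio was -1.54 among female-called cells and 0.37 among male-called cells. Tnc was at 440 and 640 CPM (0.54, 0.42 to 0.67), higher in both sexes, with 0.92 and, from 30 BSA UMIs in male-called cells, 2.05. In the BSA library 83.8% of the Tnc UMIs of the class lay in the 10% of cells that held most of them.

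**Figure D4:**
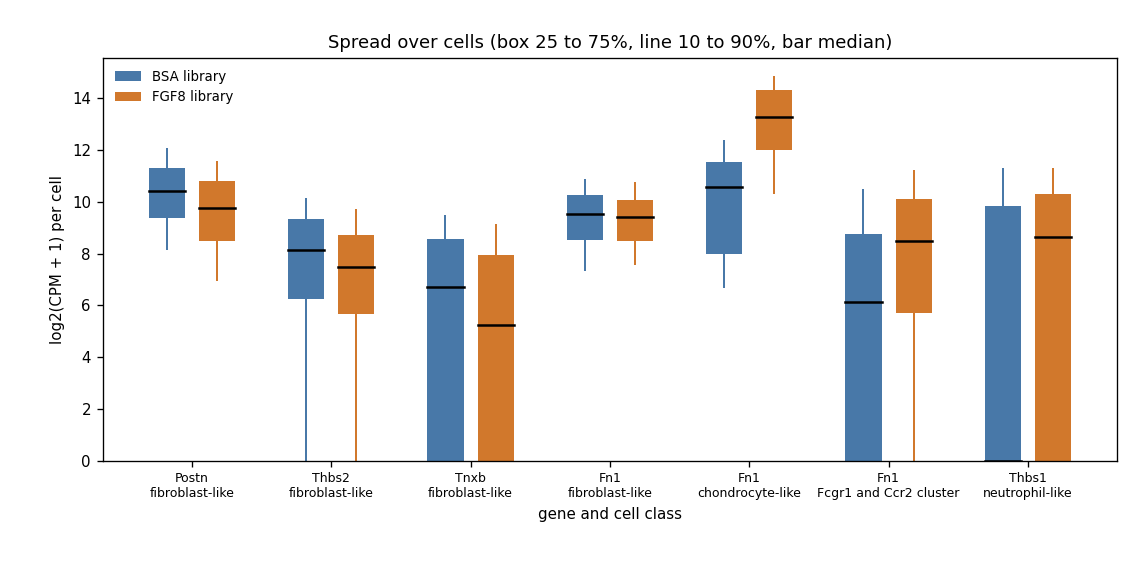
Spread over cells with at least 2000 UMIs of log2(CPM + 1) for 7 pairs of gene and cell class, in the BSA library (blue) and the FGF8 library (orange); boxes span the 25th to 75th percentile, lines the 10th to 90th, and black bars are medians. The boxes of Fn1 in chondrocyte-like cells do not overlap (medians 1513 and 9763 CPM), whereas those of the other 6 pairs overlap.

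Fn1 was also higher in the FGF8 library in most classes outside the connective tissue. It was not higher in the small Corin subcluster or in lymphatic endothelial-like cells (48 and 11 cells). In the latter it was at 661 and 368 CPM (-0.85, an interval below 0) beside fibroblast markers of 4629 and 332 CPM, 7 of 7 lower, whose part was not tested. Classes with little Fn1 shared the rise. Erythroid-like cells, the reference class, held 8 Fn1 UMIs of 1071415 in the BSA and 138 of 3473000 in the FGF8 library. Macrophage-like cells held 48 of 1745875 and 286 of 2638313, and T or NK-like cells 8 of 404624 and 62 of 610566. The part of free RNA in these rises was not tested. An immune cluster was called by its leading genes Fcgr1 and Ccr2. It had 1 monocyte or dendritic marker among its 10 leading genes and 4 of 6 detected, and all 5 macrophage markers detected but none leading. Fn1 stood there at 406 and 770 CPM, a log2 ratio of 0.92 (0.83 to 1.01), with 0.77 among female-called cells and 1.11 among male-called cells. Among cells of that cluster with at least 2000 UMIs (237 BSA and 530 FGF8 cells), 29.1% and 52.8% held an Fn1 UMI after thinning. The thinned shares in erythroid-like cells were 0% (0 of 53 cells, with the same limit) and 7.24%. Over all 282 and 577 cells of the cluster the unthinned shares were 45.7% and 75.4%, at medians of 8895.5 and 9058 UMIs. The fibroblast markers summed to 2980 and 2825 CPM there, 4 of 7 higher, the macrophage markers to 2049 and 1962 CPM, 2 of 5 higher, and the chondrocyte markers to 68.3 and 61.8 CPM. The monocyte or dendritic markers were lower, 5 of 6, at a sum of 2631 and 1390 CPM, and the part of these lists was not tested. No member was past 1 or -1 in this cluster, where 8.56% of genes were above 1 and 5.30% below -1, and Thbs1 had an interval that held 0, at 159 and 169 CPM (0.09, -0.07 to 0.25).

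In blood endothelial-like cells (73 and 132 cells) Fn1 was at 84.6 and 350 CPM (2.05, 1.73 to 2.39), with 1.79 and 2.24 by sex, and 84.1% of its FGF8 UMIs lay in 10% of the cells. The chondrocyte markers moved with it, 6 of 6 higher, from 30.8 to 238 CPM, while the fibroblast markers went from 1951 to 877 CPM; their part was not tested. Of the members 3 were above 1 (Fn1, Tnc and Thbs1) and 1 below -1 (Tnxb, from 15 and 13 UMIs), against 5.86% and 3.63% of genes. In pericyte-like cells Tnc, Tnn and Tnxb were above 1, against 5.66% of genes above 1 and 2.39% below -1, all at low levels. Tnc was at 45.3 and 93.2 CPM (1.04, 0.75 to 1.34), while Tnn rested on 5 and 102 UMIs and Tnxb on 32 and 118 UMIs. There the 7 fibroblast markers were all higher, at a sum of 3119 and 3672 CPM, and their part was not tested.

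Neutrophil-like cells (155 and 519 cells) kept Thbs1 high in both libraries, at 678 and 842 CPM (0.31, 0.14 to 0.49), but with -1.23 among female-called cells and 0.74 among male-called cells, from 62 and 21 UMIs and from 40 and 534 UMIs. All 7 members were above 0 and 5 above 1 in this class. The median over all genes there was 0.18, and 18.7% of genes were above 1 and 5.41% below -1. The 5 were Tnc, Tnn, Postn, Fn1 and Thbs2, with at most 212 CPM. Fibroblast markers were higher too, 7 of 7, at a sum of 1052 and 2205 CPM. In erythroid-like cells the 7 members summed to 28.9 and 128 CPM beside fibroblast markers of 186 and 489 CPM, with 7 of 7 higher. In Schwann-like cells Thbs2 was at 44.7 and 118 CPM (1.40, 1.07 to 1.74), beside chondrocyte markers of 57.4 and 395 CPM, with 6 of 6 higher, and Tnn, from 12 and 38 UMIs, was the other member above 1, where 5.21% of genes were above 1 and 2.68% below -1. The part of these transcripts in the members' ratios was not tested.

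The other genes of this kind of matrix were read from 2 lists, chosen like the members with earlier results of these data known. Of 22 further matrix and matricellular genes in fibroblast-like cells, 7 were above 0 and 15 below, with a median log2 ratio of -0.18, 2 above 1 and 3 below -1, against the 6.72% and 5.06% of all genes. Spp1, which encodes osteopontin, went from 513 to 2610 CPM (2.35, 2.32 to 2.37), and Thbs4, the thrombospondin of tendon and muscle, from 177 to 453 CPM (1.36, 1.32 to 1.40). Comp, the thrombospondin of cartilage and tendon, went the other way, from 327 to 168 CPM (-0.96), and Sparc, a collagen-binding protein, from 10801 to 6563 CPM (-0.72, -0.72 to -0.71). Col14a1, a fibril-associated collagen, was at 674 and 327 CPM (-1.04, -1.07 to -1.02) and the matricellular Ccn3 at 178 and 87.6 CPM (-1.02, -1.07 to -0.97), while Tgfbi, the closest relative of Postn, was at 208 and 211 CPM (0.02, -0.02 to 0.06). By sex, the log2 ratios were 2.67 and 2.80 for Spp1 among female-called and male-called cells, 0.96 and 2.20 for Thbs4, -0.98 and -1.04 for Comp, -0.88 and -0.66 for Sparc and -1.11 and -1.33 for Col14a1. Those of Ccn3 (-0.96 and -0.86) were not past -1, and Tgfbi differed in sign (-0.13 and 0.15). The third gene below -1, Vtn, named only to complete the count, had 21 and 9 UMIs.

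Of 15 receptor genes, 6 were above 0 and 9 below, with a median of -0.03. The fibronectin receptor subunit Itga5 was at 62.5 and 116 CPM (0.90, 0.83 to 0.96), whereas its partner Itgb1 was at 482 and 517 CPM (0.10, 0.08 to 0.13). Itgav and Itgb3, which pair as a receptor for periostin, fibronectin and thrombospondin, were at 88.5 and 104 CPM (0.24, 0.18 to 0.30) and at 26.4 and 16.1 CPM (-0.72, -0.84 to -0.59). Itga9, a tenascin-C receptor subunit, was at 20.4 and 14.6 CPM (-0.49, -0.62 to -0.35) and Cd47, a receptor of thrombospondins, at 332 and 325 CPM (-0.03, an interval that held 0). Itgb6 was above 1, at 1.98 and 4.00 CPM (1.01, 0.63 to 1.41), and Itga8 below -1, at 33.2 and 14.4 CPM (-1.21, -1.33 to -1.08). By sex, female-called first, the log2 ratios were 0.85 and 0.86 for Itga5, 0.09 and 0.11 for Itgb1, 0.23 and 0.14 for Itgav, -0.75 and -0.56 for Itgb3 and -0.57 and -0.42 for Itga9. They were 1.16 and 1.37 for Itgb6 and -1.31 and -1.21 for Itga8, while that of Cd47 was -0.13 in male-called cells and had an interval that held 0 in female-called cells.

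**Figure D5:**
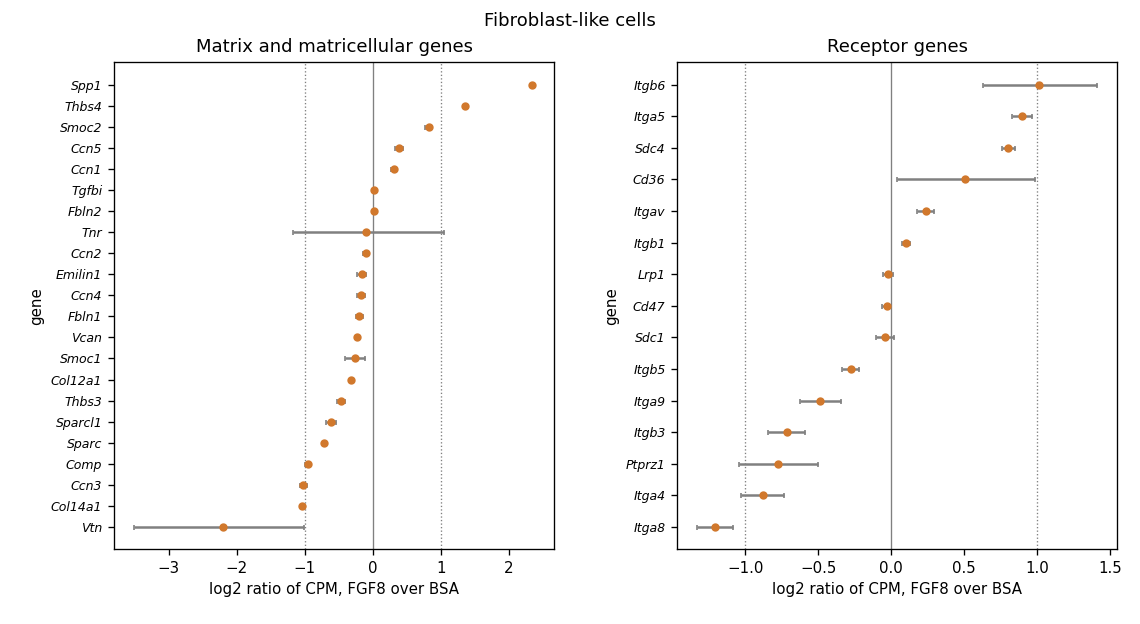
Log2 ratio of CPM, FGF8 over BSA library, in fibroblast-like cells for 22 matrix and matricellular genes (left) and 15 receptor genes (right), sorted by ratio, with 95% counting intervals; dotted lines mark 1 and -1. Spp1 (2.35) and Thbs4 (1.36) lie above 1, Ccn3, Col14a1 and Vtn below -1, and of the receptors Itgb6 (1.01) and Itga8 (-1.21).

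Across 40 points, the 20 classes in each of 2 libraries, the genes whose log2(CPM + 1) was most like that of each member were found among 12499 genes with at least 500 UMIs. The nearest to Postn were Col3a1 (Pearson r = 0.965), Col5a2 (0.962) and Col5a1 (0.957), fibrillar collagen genes, and the nearest to Thbs2 were Col5a1 (0.947), Angptl2 (0.941) and Col5a2 (0.934). Those of Tnc were Ltbp3 (0.918), Aebp1 (0.905) and Tnfaip6 (0.904). Those of Tnn were Lox (0.889), Ltbp2 (0.882) and Mfap5 (0.877), and those of Tnxb were Pcsk5 (0.902), Mmp2 (0.898) and Fbln1 (0.896). The nearest to Fn1 were Tgfb2 (0.891), Srpx2 (0.869) and Smoc2 (0.863) and those to Thbs1 were Tnfaip2 (0.810), Cacnb2 (0.783) and Il15ra (0.741). Among the members themselves, Postn and Thbs2 were the most alike (0.915) and Tnn and Thbs1 the least (0.498). These are descriptions over points that share libraries and depth.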

How the data were processed

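Single-cell RNA sequencing data were 2 libraries, and the deposited values were raw UMI counts per gene and barcode that the authors made with Cell Ranger 9.0.0 on GRCm39 (default parameters, by which only reads on a gene's own strand are counted). Kept barcodes had over 200 and under 7500 genes and less than 15% mitochondrial UMIs. Following the study's methods, cells were clustered in R 4.3.3 by Seurat 5.3.0, using sctransform 0.4.2 (SCTransform, CCA, 30 components, resolution 0.05, seed 42). Fibroblasts were then re-clustered at 0.2 and other cells at 0.3, leaving the members, the matrix and receptor lists and the sex-linked genes out of the variable features.

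A cluster was called X-like where at least 3 markers of X were in 10% of its cells and X had the most markers among the 10 leading genes by fold found in 50% of cells; these rules were set after the data were seen. The subclusters of the fibroblasts, a globin cluster with few UMIs and the Fcgr1 and Ccr2 cluster were exceptions, called by leading genes whatever their markers. Keratinocyte-like and Corin cells in the fibroblast cluster at 0.05 were taken out. Scrublet called 0 doublets at its automatic threshold and so did not work as a caller. As an alternative, the 5% of cells with the highest Scrublet scores in each library (553 cells) were removed. Female-called cells had Xist and no Y-linked UMI, male-called cells the reverse. UMIs were summed per library and class and compared in Python 3.11.15 with numpy 2.4.6 and scipy 1.17.1, with exact Poisson, Clopper-Pearson and conditional binomial 95% intervals; a gene without UMIs in one library entered all-gene counts at a floor of 3 UMIs. The functions were tested on simulated data. Members and lists were chosen with earlier results of these data known. Named genes were the members, list genes with at least 100 UMIs past a log2 ratio of 1 or -1, and 10 genes of the same lists whatever their values. For each member the 3 genes with the highest r were named too.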

Additional observations from a re-analysis of the deposited data

Results flagged for a closer look

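Fn1 differed between cell classes: its log2 ratio of FGF8 over BSA was 2.43 in chondrocyte-like cells and -0.21 in fibroblast-like cells, with counting intervals on opposite sides of 0. It was picked as a member past 1 or -1 in a class, with at least 100 UMIs in each library, that had the opposite sign in fibroblast-like cells. With 1 library per treatment the difference between the classes was not tested.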

How the results depend on the processing

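The fibroblast-like comparison was recomputed under 18 alternatives, 6 of them chosen after seeing the data. No member was past 1 or -1 under any of them. Postn, Thbs2, Tnxb and Fn1 were below 0 and Tnc above 0 in all 18, with ranges of -0.95 to -0.31 for Postn, -0.92 to -0.27 for Thbs2, -0.85 to -0.23 for Tnxb, -0.34 to -0.02 for Fn1 and 0.03 to 0.54 for Tnc. Tnn changed sign under 1 alternative, without the Prg4 and Fmod subclusters (0.10). Thbs1 changed sign under 6, with the stricter cell filter (0.0775), thinning to 2000 UMIs (0.0499) or 5000 UMIs (0.0011), each cell weighing the same (0.22), without the Prg4 subcluster (0.23) and without the Prg4 and Fmod subclusters (0.32). The members' median moved to -0.0870 with the stricter filter, -0.24 with thinning to 2000 UMIs, -0.0764 with each cell weighing the same, -0.23 when centred on the median of all genes, -0.63 among female-called cells and -0.16 among male-called cells, -0.0946 without the Prg4 subcluster and -0.18 without the Prg4 and Fmod subclusters. The cause was not tested. The Fn1 ratio in chondrocyte-like cells moved to 2.67 with the stricter filter, 2.56 with each cell weighing the same, 2.81 in female-called cells, 1.82 in male-called cells and 2.36 without integration. The count of 6 members highest in connective tissue held under 5 alternatives, without a share over all genes beside it. No paired analysis was possible because each treatment had 1 library. Depth limits the low classes, where some ratios rest on fewer than 20 UMIs per library.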
